A study of Mus musculus with 22 samples.

Results

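The genes described here are 51 genes of the lysosome, out of 20018 named genes on the array. They were taken from a list of symbols for lysosomal hydrolases, membrane proteins, the proton pump and the TFEB transcription factors, and a probe was assigned to a gene when the RefSeq table paired its accession with that symbol. All 51 genes had a probe, and together they had 64 probes: 39 genes had 1 probe and 12 genes had several. Where a gene had more than 1 probe, the values are those of the probe with the highest mean log2 Cy5 signal over the arrays.

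The cells were FE1, an immortalised line that grew out of lung epithelium of a transgenic Muta Mouse, and they were exposed for 24 h to the multi-walled carbon nanotube Mitsui7, a long and rigid type. The groups were a vehicle control at 0 µg/ml (5 arrays), a low dose of 12.5 µg/ml (6 arrays), a medium dose of 25 µg/ml (5 arrays) and a high dose of 100 µg/ml (6 arrays). On each array the sample carried Cy5 and Universal Mouse Reference RNA, a commercial pool, carried Cy3, so a value is a log2 ratio of sample to pool and changes are differences between such ratios. All groups are 1 cell line grown without immune cells. The study's methods describe separate exposure experiments, fewer than the arrays of any group, so some arrays of a group share an experiment. The labels do not say which arrays these are, so the p-values measure only the spread between these samples, which may be partly technical.

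The lysosome is the acidic compartment in which proteins, glycans, lipids and particles taken up by the cell are broken down by hydrolases that need low pH, kept by the V-ATPase proton pump. TFEB and TFE3 are related transcription factors that are held in the cytoplasm when nutrients are plentiful and that move to the nucleus when lysosomes are stressed or damaged, where they bind E-box motifs near the starts of lysosomal genes. Rigid fibres and other particles that cells cannot digest end up in lysosomes, and leakage of cathepsins from damaged lysosomes is a known early step in the response of cells to them.

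Because these data bear on a factor and its known targets, the promoter windows were searched for the E-box CACGTG, which reads the same on both strands, in the RefSeq sequences from 250 bases before to 50 bases after each start on GRCm38.p6. Of the lysosome genes, 44 had a window, and 15 of them (34.1%) held the motif, against 8.09% of 27025 genes with a window. The longer form TCACGTG, which contains the E-box and was searched on both strands, stood in 13 of 44 lysosome genes (29.5%) and in 4.29% of all genes. The CLEAR palindrome, a longer consensus with the E-box at its centre, stood in 1 lysosome gene, Cln3 (2.27%), and in 0.37% of all genes. A shorter part of that palindrome, GTCACGTG, stood in 12 of 44 lysosome genes (27.3%) and in 2.55% of all genes. The 23 E-boxes of the lysosome genes lay mostly close to the start, with 15 of them within 100 bases before it, and 6 genes held several.

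The stretches below show E-boxes, in capitals, upstream of 2 genes that changed (Arsa and Ctsl), and of 4 genes with several sites whose changes were not called (Lamp1, Mcoln1, Cln3 and Ctsd). For Ctsd the site at -98 is shown and a further one, at -245, is not. They are written 5′ to 3′ on the strand of the gene, from RefSeq on GRCm38.p6, in the order Arsa (chr15:89477425-89477457, minus strand), Ctsl (chr13:64370734-64370770, minus strand), Lamp1 (chr8:13159083-13159160, plus strand), Mcoln1 (chr8:3500431-3500496, plus strand), Cln3 (chr7:126583335-126583402, minus strand) and Ctsd (chr7:142387903-142387942, minus strand).
Arsa: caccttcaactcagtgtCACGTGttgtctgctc
Ctsl: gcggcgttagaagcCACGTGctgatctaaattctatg
Lamp1: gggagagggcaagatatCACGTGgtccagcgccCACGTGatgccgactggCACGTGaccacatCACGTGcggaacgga
Mcoln1: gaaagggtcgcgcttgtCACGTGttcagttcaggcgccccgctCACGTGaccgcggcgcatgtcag
Cln3: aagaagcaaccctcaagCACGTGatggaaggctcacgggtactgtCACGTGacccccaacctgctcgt
Ctsd: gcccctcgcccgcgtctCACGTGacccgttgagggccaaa
Lamp1 held 4 E-boxes in the 78 bases before its start, and the E-box of Arsa began 16 bases before the start, at -16. The 3 windows of Tfeb itself held none. A match to these letters is a description of the window and does not show binding, which was not measured.

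The arrays lay on 5 slides, and slide is a term in every comparison. Slide 5 held low and high dose replicate 5 and no control. Where slide-adjusted values of these arrays are set beside the controls below, their place comes from the fitted model and is not a separate observation. Between 23688 and 39139 probes per array were above the negative control level, and precision is limited by how many arrays there were. Spots marked as outliers by the scanner software were left out; they made up 3.94% to 6.22% of spots on slide 2 and at most 2.51% elsewhere. Over the 2099 probes called at the high dose with a value on every array, the mean shift from the controls was 0.49 to 0.78 in the low dose arrays, 0.68 to 0.84 in the medium dose arrays and 0.89 to 1.01 in the high dose arrays, on the log2 scale. These probes were chosen by their high dose call and turned to its sign, so the larger shift at the high dose follows in part from that choice. By this measure low dose replicate 1 (0.78) lay in the range of the medium dose and medium dose replicate 2 (0.68) in that of the low dose. Of the epithelial markers, Krt8 and Krt18 were detected on every array and Cdh1 on none. Of the 6 type II cell markers, Sftpa1 and Nkx2-1 were likewise detected on none. However, 3 of these 6, and 3 of the 4 type I cell markers, were detected on at least 4 arrays of the high dose or control group. None of the type I or type II markers was called at the high dose. The mesenchymal genes Vim, Col1a1, Col1a2, Col3a1, Pdgfra and Pdgfrb were detected on all arrays. Of these 6 mesenchymal genes 5 fell at the high dose, with log2 changes of -1.34 for Col1a1, -1.52 for Col1a2 and -1.70 for Col3a1, which encode chains of the fibrillar collagens. None of the 4 detected epithelial markers and none of the 7 macrophage markers was called there, although Itgam and Cd14, which macrophages carry, were detected on all arrays. The summed raw Cy5 signal of the mesenchymal list was 124000 to 642000 in controls and 118000 to 321000 at the high dose, and its part in the results below was not tested; fewer cells of a kind and less RNA per cell cannot be told apart in such samples.

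In the untreated cells, 46 of the 51 genes were detected on at least 4 of the 5 control arrays. Against the reference pool, 17 of these 46 had a mean log2 ratio under -1, 28 lay within 1 of 0, and 1 lay above 1. The last was Ctsh, encoding cathepsin H, at 1.84 ± 0.47 (SD, n = 5). Neu1, the sialidase that removes terminal sialic acids, was at -3.55 ± 0.16 (SD, n = 5). Ctss, encoding the cathepsin S of antigen-presenting cells, stood well above background on none of the controls (0 of 5) and was detected on at most 3 arrays of any group, so no change is given for it.

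Across the lysosome genes, changes past the test were few, mostly downward, and their share was close to that of all named genes or below it. A gene was called when its adjusted p was at most 0.05, its change at least 1.5-fold, and its probe detected on at least 4 arrays of either group (limma, Benjamini-Hochberg over all 55681 probes). At the high dose 6 of 49 detected genes were called (12.2%), against 11.9% of named genes. Ctsl rose, where 5.47% of named genes did, and Tfeb, Arsa, Smpd1, Asah1 and Ids fell, where 6.44% did. At the medium dose 4 of 49 were called, against 8.96% of named genes (4.28% higher and 4.68% lower): Ctsl rose and Tfeb, Arsa and Smpd1 fell. At the low dose 1 of 50, Tfeb, was called, against 5.28% of named genes (2.21% higher and 3.06% lower). In all, 45 of the 51 genes were called at no dose, and Tfeb alone was called at all 3. The 3 comparisons share their control arrays and are not independent of each other.

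With no fold threshold, 12 genes passed at the high dose, against 20.8% of named genes, 8 of 49 at the medium dose against 14.9%, and 3 of 50 at the low dose against 9.83%. The fitted change was negative for 34 of 49 genes at the high dose, where 48.7% of named genes had a negative change, and for 34 of 49 at the medium dose, where 49.8% had one. At the low dose it was negative for 29 of 50, beside 49.9%. The median change of the lysosome genes was -0.08 at the low dose, -0.23 at the medium dose and -0.11 at the high dose. The median over all detected probes was 0.01 at each, and the normalisation within each array holds it near 0. Slide-adjusted values at the high dose lay below all controls on every array for 10 of 49 genes, where 10.6% of named genes did so, and above all controls for 2 of 49, where 9.92% did so. For the medium dose 7 of 49 lay below (8.29% of named genes) and 2 above (8.1%), and for the low dose 2 of 50 lay below (6.11%) and 4 above (5.51%).

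The median log2 ratio over the lysosome genes, adjusted for slide, was -0.79, -0.77, -0.72, -0.86 and -0.79 in control replicates 1 to 5. It ranged from -1.02 to -0.68 at the low dose (median -0.88), was -1.14, -0.75, -0.97, -0.86 and -1.13 in the medium dose replicates 1 to 5, and ranged from -1.08 to -0.90 at the high dose (median -1.05). After slide adjustment the high dose arrays therefore all lay below the controls, and the low and medium dose arrays overlapped them. High dose replicate 5 lay on slide 5, which held no control, so its place rests on the fitted slide term. Unadjusted, its median was -0.67, beside -0.97 to -0.68 in the controls. A median of levels is also not a median of changes, which at the high dose was -0.11. The median over all detected probes stayed between 0.01 and 0.04 on every array. The normalisation within each array centres the log ratios near 0, so this flat median was largely fixed beforehand.

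**Figure D1:**
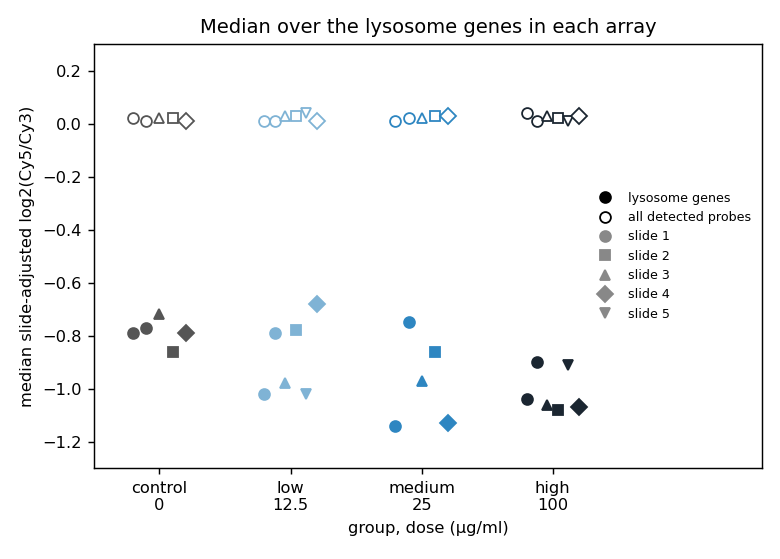
Median slide-adjusted log2(Cy5/Cy3) over the lysosome genes (filled) and over all detected probes (open), with 1 point per array, by group and dose in µg/ml; the marker shape gives the slide. The 6 high dose arrays lie between -1.08 and -0.90, below the 5 controls (-0.86 to -0.72). Slide 5 held no control, so the place of its arrays rests on the fitted slide term. All detected probes stay near 0, where the normalisation centres them. These are medians of levels, and the median change of the genes at the high dose was -0.11.

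**Figure D2:**
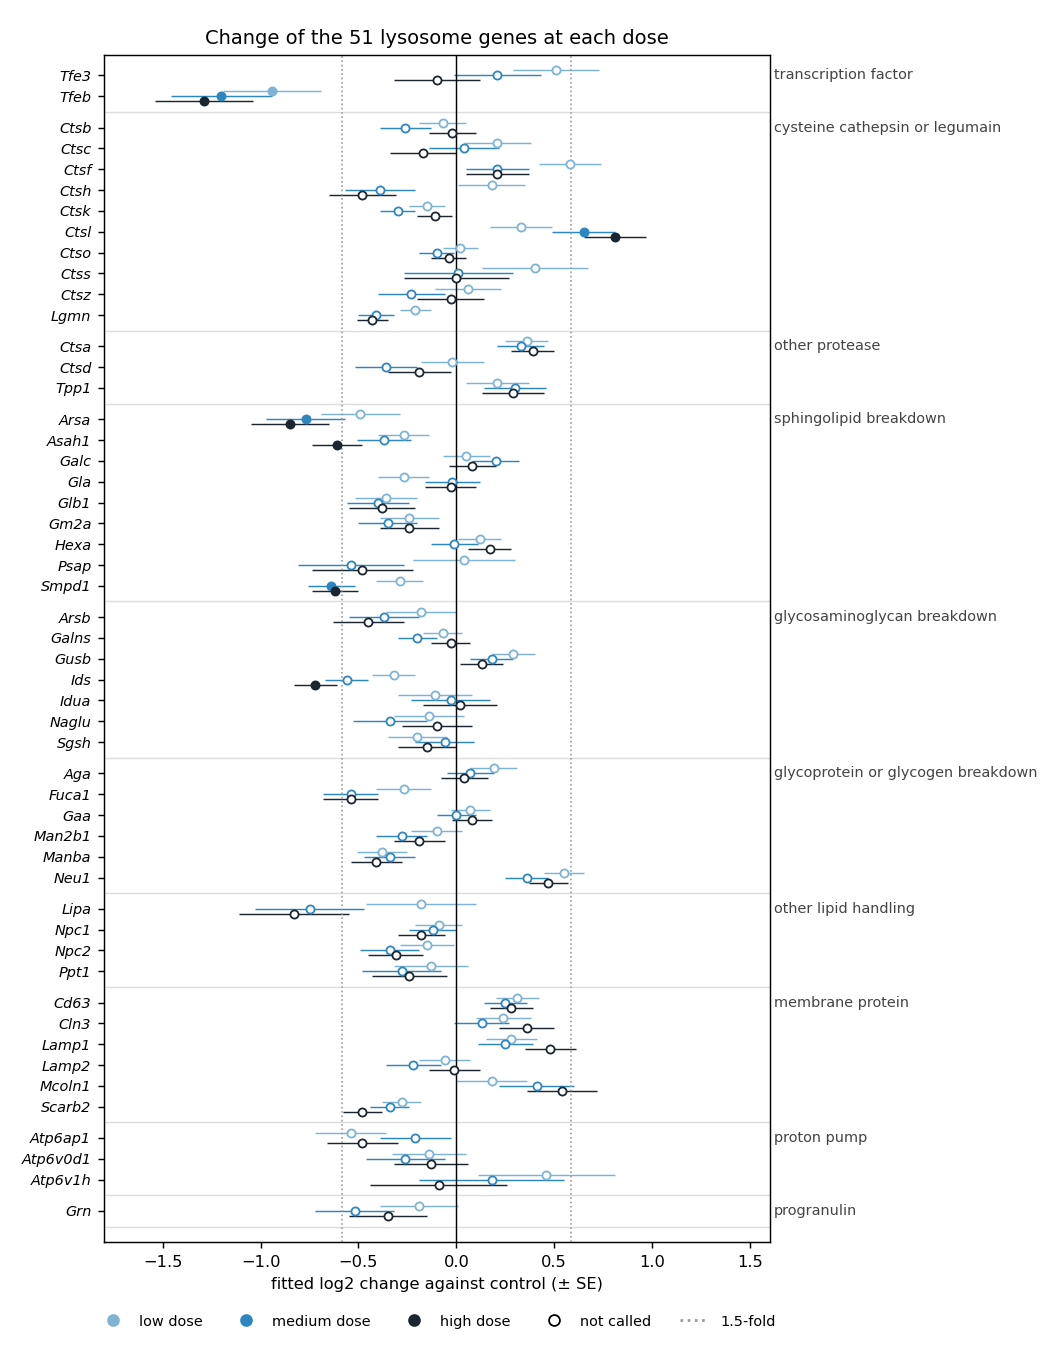
Fitted log2 change against control (points) with its standard error (bars) for the 51 lysosome genes at the low, medium and high dose, grouped by role. Filled points passed the adjusted p and the 1.5-fold threshold (dotted lines), open points did not; Tfeb has the lowest changes and Ctsl the highest at the high dose.

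The transcription factor Tfeb had the largest change of the 51 genes at each dose. Its slide-adjusted log2 ratio was -0.01, 0.74, 0.48 and 0.06 in control replicates 1, 2, 3 and 5. At the low dose it was -1.46, -0.14, -0.58, -0.69 and -0.24 in replicates 1, 2, 3, 5 and 6, and at the medium dose -1.34, -0.15, -0.97 and -1.05 in replicates 1, 2, 3 and 5. At the high dose it was -1.04, -0.89, -1.08, -0.90 and -0.92 in replicates 1, 2, 3, 5 and 6. After slide adjustment no exposed array overlapped the controls. Replicate 5 of the low and of the high dose lay on slide 5, which held no control. Their unadjusted values, -0.19 and -0.40, lay inside the unadjusted control range of -0.43 to 0.59. The spots of the other arrays on slide 2 were marked as outliers, so high dose replicate 4 stood alone on that slide and added nothing to the comparison.

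Tfeb fell at all 3 doses, with log2 changes of -0.94 ± 0.25 (SE) at the low dose (adjusted p = 0.0497), -1.20 ± 0.26 at the medium dose (adjusted p = 0.00928) and -1.29 ± 0.25 at the high dose (adjusted p = 0.00277), the last being 2.44-fold. Within the 3 slides that gave both groups, the high dose difference was -1.33, -1.57 and -0.98. The call at the high dose was kept in all 41 alternative settings tried, although those that only loosened the fold or detection rule could not remove it. By contrast, the call at the low dose was lost in 27 of 41, among them 15 that left out 1 array. The medium dose call was lost in 3, without the slide term, slide 1 or slide 3. Tfe3, the relative of Tfeb that binds the same motif, was not called at any dose, with changes of 0.51 ± 0.22 (adjusted p = 0.305), 0.21 ± 0.22 (adjusted p = 0.774) and -0.10 ± 0.22 (adjusted p = 0.917). Its slide-adjusted values at the high dose, -0.91 to -0.50 over 5 arrays, lay inside the control range of -1.23 to -0.17. The low end of that range was control replicate 5 alone, and the other controls, at -0.46 to -0.17, lay above all the high dose values.

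Among the cysteine proteases, Ctsl, encoding cathepsin L, an endopeptidase with broad activity, was the only one called. Its slide-adjusted log2 ratio was -1.72, -2.03, -1.75 and -1.99 in control replicates 1, 2, 3 and 5. It was -1.14, -1.61, -1.43 and -1.97 in low dose replicates 1, 2, 3 and 6, then -1.10, -1.40, -1.36 and -1.0 in medium dose replicates 1, 2, 3 and 5, and -1.15, -1.22, -1.15 and -0.72 in high dose replicates 1, 2, 3 and 6. The medium and high dose arrays all lay above the controls, and 1 low dose array lay among them.

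Ctsl rose by 0.65 ± 0.16 (SE) on the log2 scale at the medium dose (adjusted p = 0.0252) and by 0.81 ± 0.16 at the high dose (1.75-fold, adjusted p = 0.00362); its low dose change was 0.33 ± 0.16 (adjusted p = 0.373). Outlier spots were left out on 4 arrays, and low dose replicate 5 and high dose replicate 4 stood alone on their slides. Within the 3 slides that gave both groups, the high dose difference was 0.60 to 1.27. The high dose call was lost with median centring in place of loess (0.97, adjusted p = 0.341), without the slide term and without slide 1, and the medium dose call was lost in 11 of 41 settings, among them those without control replicate 2 or 5 or medium dose replicate 1 or 5.

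Other cysteine proteases moved less or the other way. Lgmn, encoding legumain, the protease that cuts after asparagine and processes cathepsins, fell, with changes of -0.41 ± 0.09 at the medium dose (adjusted p = 0.0051) and -0.43 ± 0.08 at the high dose (adjusted p = 0.00177), which is under 1.5-fold, with all 6 high dose arrays (-1.31 to -1.16) below the controls (-0.94 to -0.62). Ctsb, encoding cathepsin B, which leaks from damaged lysosomes together with cathepsin L, showed changes of -0.07, -0.26 and -0.02 (adjusted p = 0.883, 0.356 and 0.977). Ctsf, encoding cathepsin F, rose at the low dose by 0.58 ± 0.16 (adjusted p = 0.048), just under 1.5-fold, and its change at the high dose was 0.21 ± 0.16 (adjusted p = 0.59). Ctsh, Ctsk, Ctso and Ctsz had no adjusted p under 0.05 at any dose, and Ctsc was near background, detected on 3 of 5 control and 2 of 6 high dose arrays.

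The aspartic protease gene Ctsd, encoding cathepsin D, had changes of -0.02, -0.36 and -0.19 (adjusted p = 0.973, 0.273 and 0.653), and its second probe gave -0.42 at the high dose (adjusted p = 0.534). Ctsa, encoding the serine carboxypeptidase that protects the sialidase and beta-galactosidase in the lysosome, rose at the high dose by 0.39 ± 0.11 (adjusted p = 0.0374), under 1.5-fold. Its values there, -1.75 to -1.29 on 6 arrays, all lay above the control range of -2.03 to -1.83 (4 arrays with a value). The dimmer probe of Ctsa gave 0.40 ± 0.09 (adjusted p = 0.00804). Neu1, which works in a complex with the product of Ctsa, rose at the low dose by 0.55 ± 0.10 (adjusted p = 0.00366) and at the high dose by 0.47 ± 0.10 (adjusted p = 0.00508), again under 1.5-fold, with all 6 low dose arrays above the controls and 5 of 6 high dose arrays. Its medium dose change was 0.36 ± 0.11 (adjusted p = 0.0558).

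Of the 9 genes of sphingolipid breakdown, Arsa, Smpd1 and Asah1 were called lower at the high dose, beside 6.44% of named genes, and Smpd1 and Asah1 were close to the 1.5-fold threshold. With so few genes this count is a description, and the role was not tested. The median change of the 9 was -0.38 at the high dose, -0.37 at the medium dose and -0.27 at the low dose.

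Arsa encodes arylsulfatase A, which removes sulfate from sulfatides. Its slide-adjusted log2 ratio was -0.43, -0.55, 0.15, -0.68 and 0.16 in control replicates 1 to 5, and -0.78, -1.09, -0.93, -1.25 and -1.12 in medium dose replicates 1 to 5. At the low dose it ranged from -1.39 to -0.45 (median -0.62) and at the high dose from -1.44 to -0.75 (median -1.12). All medium and high dose arrays lay below the controls and the low dose arrays overlapped them. The change was -0.77 ± 0.20 at the medium dose (adjusted p = 0.0281) and -0.85 ± 0.20 at the high dose (1.81-fold, adjusted p = 0.00766), but it varied between slides, from -1.38 to -0.07 at the high dose. The low dose change was -0.49 ± 0.20 (adjusted p = 0.234). The high dose call of Arsa was lost with median centring (adjusted p = 0.0903) and without slide 1 or slide 4, and the medium dose call in 14 of 41 settings, among them those without control replicate 3 or 5 or medium dose replicate 2, 4 or 5.

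Smpd1 encodes acid sphingomyelinase, which releases ceramide from sphingomyelin. Its slide-adjusted log2 ratio was -0.42, -0.43, -0.50, -0.75 and -0.77 in control replicates 1 to 5, and -1.33, -1.07, -1.36, -1.14 and -1.14 in medium dose replicates 1 to 5. It ranged from -1.28 to -0.67 at the low dose (median -0.77) and from -1.33 to -1.03 at the high dose (median -1.23). No medium or high dose array overlapped the controls, whereas low dose arrays did. Smpd1 fell, with changes of -0.64 ± 0.12 at the medium dose (adjusted p = 0.00174) and -0.62 ± 0.12 at the high dose (1.54-fold, adjusted p = 0.00108), close to the 1.5-fold threshold, and its low dose change was -0.29 ± 0.12 (adjusted p = 0.23). The high dose call was lost in 5 of 41 settings, among them those without control replicate 1 or 2, and the medium dose call in 4.

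Asah1 encodes acid ceramidase, which takes ceramide on to sphingosine. Its slide-adjusted log2 ratio was 0.24, 0.98, 0.57, 0.48 and 0.81 in control replicates 1 to 5 and ranged from -0.13 to 0.12 at the high dose (median 0.01). The high dose arrays did not overlap the controls. The change there was -0.61 ± 0.13 (1.53-fold, adjusted p = 0.00428), and the second probe gave -0.49 ± 0.15 (adjusted p = 0.0415), under 1.5-fold, so the mean over both probes was not called. At the low and medium dose the changes were -0.27 (adjusted p = 0.374) and -0.37 (adjusted p = 0.142). With no slide term the high dose change was -0.50 and did not pass (adjusted p = 0.455). The call was also lost when the block was the replicate number and not the slide, at -0.53 (adjusted p = 0.00314, under 1.5-fold). It was lost as well without slide 4 (-0.54, adjusted p = 0.0375), and without control replicate 2, control replicate 5 or high dose replicate 6.

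The other 6 genes of this role, Gla, Glb1, Hexa, Galc, Psap and Gm2a, were called at no dose. Their high dose changes ran from -0.48 for Psap, the precursor of the saposins that present lipids to these enzymes, to 0.17 for Hexa, a chain of beta-hexosaminidase, with no adjusted p under 0.05.

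Among the 7 genes of glycosaminoglycan breakdown, Ids alone was called. It encodes iduronate-2-sulfatase, which acts on heparan and dermatan sulfate. The slide-adjusted log2 ratio was -0.48, -0.88, -0.72, -0.77 and -0.65 in control replicates 1 to 5, and -1.17, -1.55, -1.05, -1.26 and -1.28 in medium dose replicates 1 to 5. It ranged from -1.17 to -0.89 at the low dose (median -1.0) and from -1.72 to -1.26 at the high dose (median -1.37). Every exposed array lay below every control.

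Ids fell at the high dose, by a log2 change of -0.72 ± 0.11 (1.65-fold, adjusted p = 0.000178), the lowest adjusted p among the 51 genes, and all 4 slides that held both groups showed it, at -1.0 to -0.68. At the medium dose the change of -0.56 ± 0.11 (adjusted p = 0.00379) was under 1.5-fold, and at the low dose it was -0.32 ± 0.11 (adjusted p = 0.148). With the authors' deposited log2 ratios the high dose change of Ids was -0.50 (adjusted p = 0.00529), under 1.5-fold. The other 6 genes (Gusb, Idua, Naglu, Sgsh, Arsb and Galns) changed by -0.45 to 0.13 at the high dose, with no adjusted p under 0.05.

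**Figure D3:**
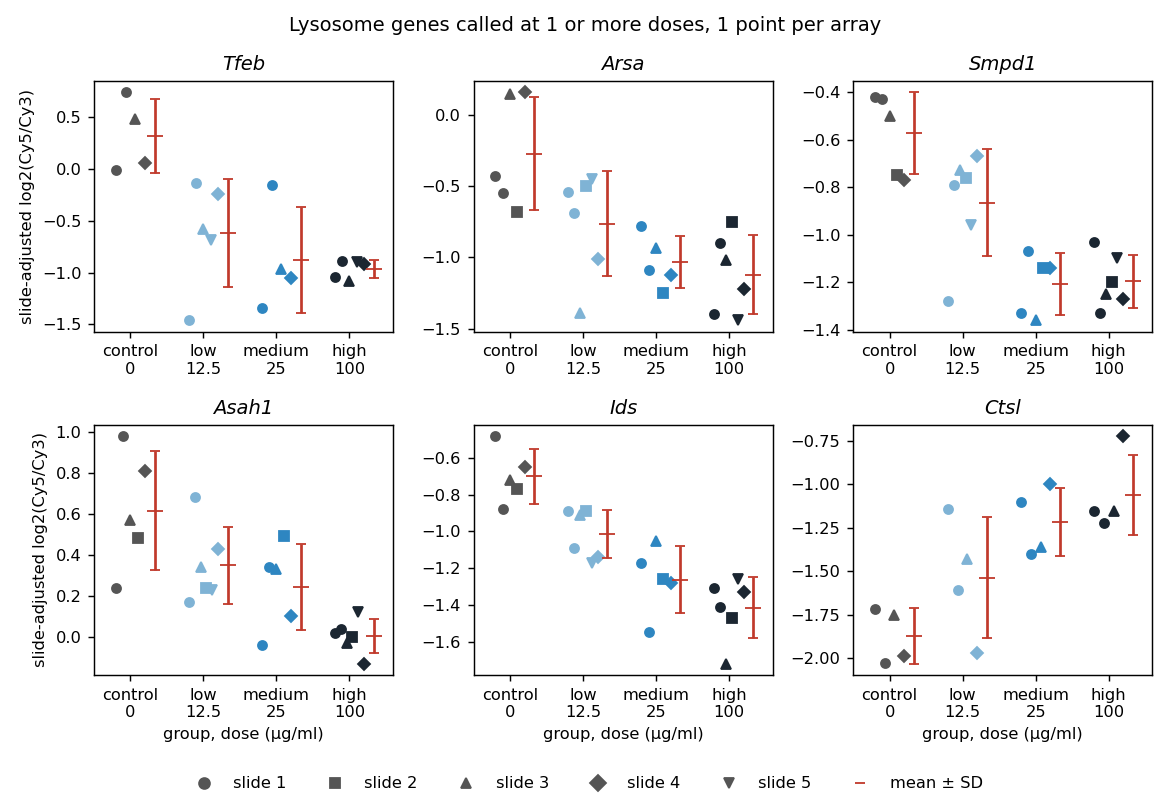
Slide-adjusted log2(Cy5/Cy3), 1 point per array with the marker shape giving the slide, for the 6 lysosome genes called at 1 or more doses; the red bar gives the group mean ± SD over the arrays shown. All high dose arrays lie below the controls for Tfeb, Arsa, Smpd1, Asah1 and Ids, and above them for Ctsl.

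None of the 6 genes of glycoprotein and glycogen breakdown was called at any dose. Fuca1, encoding the alpha-fucosidase, fell, with a change of -0.54 ± 0.14 at both the medium (adjusted p = 0.0288) and the high dose (adjusted p = 0.0161), under 1.5-fold, but its dimmer probe gave 0.11 ± 0.09 at the high dose (adjusted p = 0.615). Neu1 rose as given above. Manba, encoding beta-mannosidase, had a high dose change of -0.41 ± 0.13 (adjusted p = 0.0606). Aga, Gaa and Man2b1 had high dose changes of 0.04, 0.08 and -0.19.

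Of the genes for other lipids, Lipa, encoding the acid lipase that frees cholesterol and fatty acids, had a large change and a wide spread. Its slide-adjusted values were -1.40 to -0.25 in controls (median -0.73) and -2.02 to -1.26 at the high dose (median -1.62), with 5 of 6 high dose arrays below all controls. The change of -0.83 ± 0.28 did not pass (adjusted p = 0.0768), and neither did -0.75 ± 0.28 at the medium dose (adjusted p = 0.167). Without slide 2 it was called at both doses, and it differed by -1.57 to 0.14 within slides at the high dose. Npc1, the transporter that exports cholesterol from the lysosome, changed by -0.09, -0.12 and -0.18 (adjusted p = 0.836, 0.752 and 0.534), and Npc2 and Ppt1 by -0.31 and -0.24 at the high dose.

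Among the 6 membrane proteins, 4 changes were positive at each dose and none was called. Lamp1, a main glycoprotein of the lysosomal membrane, had slide-adjusted values of -0.57 to 0.24 in controls (median -0.08) and 0.12 to 0.60 at the high dose (median 0.36). It rose there by 0.48 ± 0.13 (adjusted p = 0.029), under 1.5-fold, with 4 of 6 arrays above all controls. Lamp2, its partner that also serves chaperone-mediated autophagy, changed by -0.06, -0.22 and -0.01 (adjusted p = 0.902, 0.518 and 0.985).

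Mcoln1, the calcium channel through which lysosomes activate TFEB, ranged from -1.61 to -0.86 in controls (median -1.23) and from -1.08 to -0.19 at the high dose (median -0.61). Its changes of 0.18, 0.41 and 0.54 ± 0.18 did not pass (adjusted p = 0.738, 0.29 and 0.0777). Scarb2, which carries glucocerebrosidase to the lysosome, went the other way, with a fall of -0.34 ± 0.10 at the medium dose (adjusted p = 0.0497) and -0.48 ± 0.10 at the high dose (adjusted p = 0.00259), under 1.5-fold, with all 6 high dose arrays below the controls. Cd63 and Cln3 had high dose changes of 0.28 and 0.36 (adjusted p = 0.167 and 0.134).

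The 3 proton pump genes were not called. Atp6v1h, a regulatory subunit of the V-ATPase, changed by 0.46 ± 0.35, 0.18 ± 0.37 and -0.09 ± 0.35 (adjusted p = 0.646, 0.904 and 0.955), with outlier spots left out on 6 arrays. Atp6ap1, an accessory subunit, had -0.54 at the low dose (adjusted p = 0.115) and -0.48 at the high dose (adjusted p = 0.119), and Atp6v0d1 had -0.13 at the high dose. Grn, encoding progranulin, a secreted protein that is cut into granulins in the lysosome, changed by -0.19, -0.52 and -0.35 (adjusted p = 0.756, 0.183 and 0.406).

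Changes were also set beside the E-boxes shown above. At the high dose the 15 genes with an E-box had a median change of -0.03 (range -0.85 to 0.81), with 7 positive and 8 negative, and 1 called in each direction, Ctsl higher and Arsa lower. The 27 detected genes whose windows held none had a median of -0.24 (range -1.29 to 0.47), with 7 positive and 20 negative, and Tfeb, Smpd1 and Ids called lower. At the medium dose the medians were -0.02 and -0.28, and at the low dose -0.02 and -0.12. The 7 genes with no window in the table (Asah1 among those called) had a median of -0.09 at the high dose. These are descriptions of the genes with and without the letters, and the difference was not tested.

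**Figure D4:**
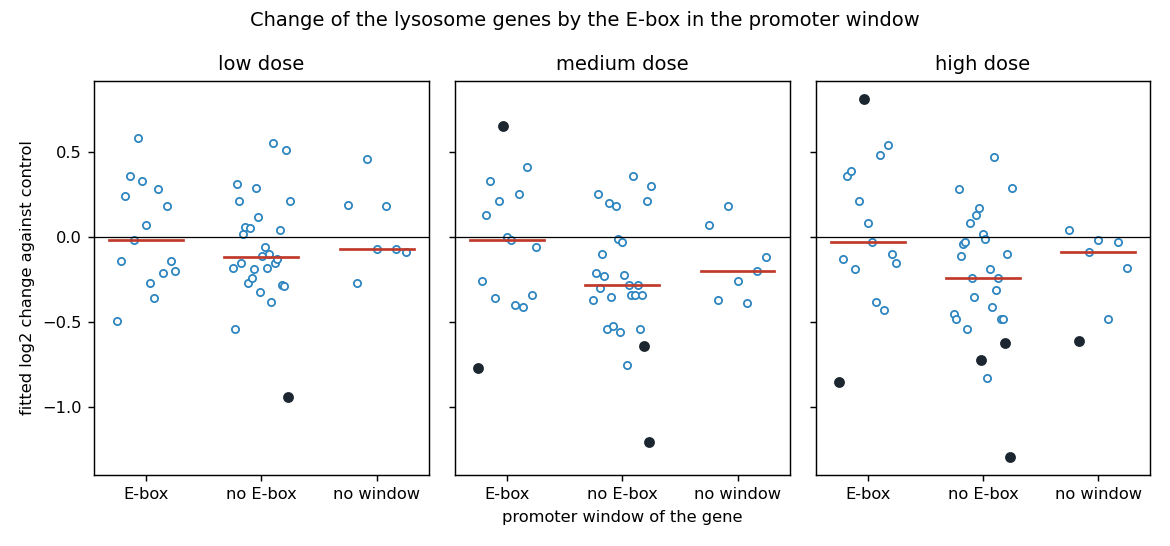
Fitted log2 change against control of each detected lysosome gene at the low, medium and high dose, by whether its promoter window held an E-box, held none, or was not in the table; filled points are called genes and the red line is the median. At the high dose the medians are -0.03 with an E-box and -0.24 without.

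Between the doses no lysosome gene was called. For the high against the low dose 0 of 50 genes passed limma's adjusted p and fold threshold, against 0.463% of named genes, and 13 had an unadjusted p under 0.05, as had 2128 of 14256 named genes. For the medium against the low dose 0 of 50 passed, against 0% of named genes, and 7 had an unadjusted p under 0.05, as had 1210 of 13876 named genes. For the high against the medium dose 0 of 49 passed, against 0%, and 0 had an unadjusted p under 0.05, beside 772 of 14107 named genes. The lowest adjusted p of the high against the low dose was that of Ctsh, whose change was -0.67 ± 0.16 (adjusted p = 0.0984), followed by Ids at -0.40 ± 0.10 (adjusted p = 0.125). Ctsh, the aminopeptidase cathepsin H, is called in that comparison under the replicate block, without control replicate 1, without control replicate 5 and without low dose replicate 1. The difference in Tfeb between the high and the low dose was -0.35 (adjusted p = 0.768).

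A further 58 lysosomal genes, other pump subunits, hydrolases, membrane proteins, sorting receptors, cathepsin inhibitors and regulators of mTORC1 and TFEB, were looked at in the same way. At 100 µg/ml, 3 of the 53 detected genes rose and 2 fell, against 5.47% and 6.44% of named genes. Their median change was 0.06, and 31 of 53 changes were positive, where 48.7% of named genes had a negative change. At the medium dose 1 of 53 was called higher (Lamp3) and 3 lower (Sort1, Gnptab and Tcirg1), against 4.28% and 4.68% of named genes. At the low dose Dpp7 alone of the 53 was called, as higher, against 5.28% of named genes called (2.21% higher and 3.06% lower). Many of these calls depended on the setting. Of 41 settings, the medium dose call was lost in 22 for Tcirg1 (13 of them leaving out 1 array), 17 for Sort1 (6), 13 for Gnptab (6) and 6 for Lamp3 (1, control replicate 3), and the low dose call of Dpp7 in 17 (6).

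Lamp3, a membrane glycoprotein of lamellar bodies and lysosomes, had slide-adjusted values of -0.05 to 0.73 in controls (median 0.13) and 0.72 to 1.47 at the high dose (median 1.10), and rose by 0.90 ± 0.17 (adjusted p = 0.00167) after 0.75 at the medium dose (adjusted p = 0.0133). Dpp7, a dipeptidyl peptidase of vesicles and lysosomes, rose at the low dose by 0.59 (adjusted p = 0.00435) and at the high dose by 0.72 ± 0.11 (adjusted p = 0.000242), and its 6 high dose values (-0.32 to 0.20) lay above the controls (-0.96 to -0.57). Flcn, encoding folliculin, which helps mTORC1 keep TFEB and TFE3 in the cytoplasm, rose by 0.88 ± 0.24 at the high dose (adjusted p = 0.0232), with values of -1.34 to -0.10 in controls and -0.03 to 0.54 at the high dose. That call of Flcn was lost in 12 of 41 settings, among them median centring (adjusted p = 0.334), no slide term (adjusted p = 0.255) and those without control replicate 2, 3 or 5 or high dose replicate 1, 4 or 6, while its dimmer probe gave 0.65 ± 0.11 (adjusted p = 0.000517). The high dose call of Dpp7 was lost with median centring and with the authors' deposited ratios, and that of Lamp3 with median centring.

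Both genes called lower at the high dose serve the delivery of enzymes to the lysosome. The 6 genes of that role had 3 positive and 3 negative changes there, with a median of 0.03, and the role was not tested. Sort1, encoding sortilin, a sorting receptor, had values of 1.12 to 1.78 in controls (median 1.53) and 0.21 to 1.00 at the high dose (median 0.50), a fall of -0.91 ± 0.17 (adjusted p = 0.00139), while its dimmer probe gave an adjusted p of 0.172. Gnptab, a chain of the phosphotransferase that makes the mannose 6-phosphate tag, fell, with changes of -0.59 ± 0.15 (adjusted p = 0.0136) at the high dose and -0.61 (adjusted p = 0.0203) at the medium dose. Its high dose call, just past 1.5-fold, was lost in 15 of 41 settings, among them normexp, the scanner's log ratio, the deposited log2 ratios, the replicate block (-0.58, adjusted p = 0.000182) and those without control replicate 1, 3 or 4 or high dose replicate 2, 3 or 4. The pump subunit gene Tcirg1 was called at the medium dose alone, at -0.65 (adjusted p = 0.0431), with -0.54 at the high dose (adjusted p = 0.0758). None of the other 13 pump subunits in this group was called at any dose.

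**Figure D5:**
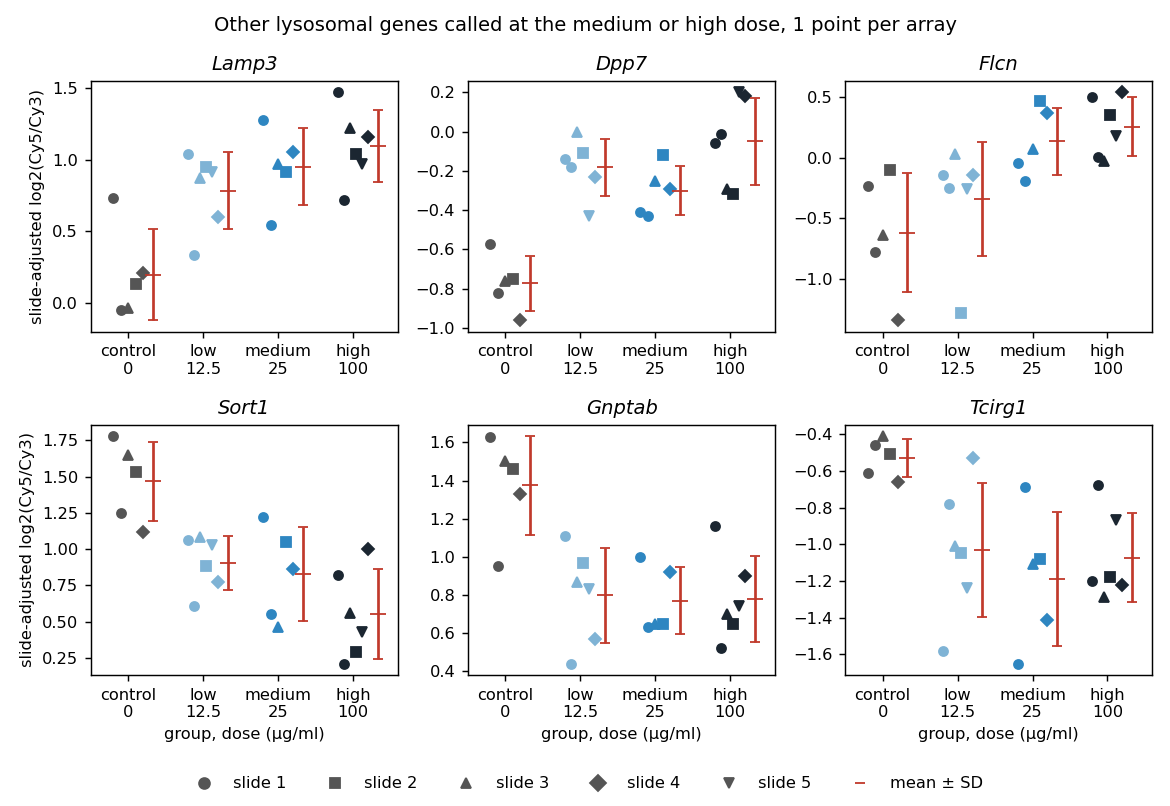
Slide-adjusted log2(Cy5/Cy3), 1 point per array with the marker shape giving the slide, for the 6 further lysosomal genes called at the medium or high dose; the red bar gives the group mean ± SD. All high dose arrays lie above the controls for Dpp7 and Flcn and below them for Sort1 and Tcirg1, while 1 of 6 overlaps the controls for Lamp3 and for Gnptab.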

How the data were processed

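RNA of each sample (Cy5) and reference RNA (Cy3) were hybridised on 22 Agilent arrays of 62976 spots without dye swaps. The deposited scanner files, made by the authors with Feature Extraction 10.7.3.1 per the file headers, hold median signal intensities, a log10 ratio after the software's own background and dye correction, and 0 or 1 marks per spot. The authors also deposited a table of log2 ratios whose normalization is not given in the sources used here. Its 22 columns each correlated best with their own array (lowest r = 0.84). The array grid was annotated on mm9, and promoter sequences are from RefSeq on GRCm38.p6, so they were joined by symbol only.

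As in the study's methods, median intensities were used without background subtraction, spots of a probe were combined by their median and slide was a term of the model. The loess normalisation within each array was chosen here and is not part of those methods. Group and slide were fitted to 55681 probes with limma 3.58.1 in R 4.3.3, in place of the study's MAANOVA test, and checked on simulated data. Detection required a Cy5 signal above the trimmed mean of 308 negative control spots by more than 3 of their trimmed SDs. Slide-adjusted values are log2 ratios minus the fitted slide term. Named genes are all those called at any dose, a set list of lysosomal genes of known role, and further genes called at the high dose; those with an adjusted p at most 0.05 but under 1.5-fold, the other members given by value and Tcirg1 were added after their values were seen. The members and lists were chosen with earlier results of these data known. Arrays with the same replicate number, mostly from the same slide, deviated together (r = 0.187 to 0.819 over all pairs). Once the slide term is fitted, r was -1 to 0.585. The -1 is that of low and high dose replicate 5, alone on slide 5, whose deviations from that fit must mirror each other. A fit with the replicate number as a block was therefore also made. Other alternatives changed the normalization, background correction, ratio, outlier spots, samples, filters, thresholds, probe choice and arrays included.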

Additional observations from a re-analysis of the deposited data

Results flagged for a closer look

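Of 52 groups of slide-adjusted values examined for a sample far from the others, 2 held one, and chance alone marks about 1 in 20 groups. For Ctsl at the high dose, replicate 6, on slide 4, stood at -0.72 while the others lay between -1.22 and -1.15. For Flcn at the low dose, replicate 4, on slide 2, stood at -1.28 while the others lay between -0.26 and 0.03. What set these arrays apart was not tested.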

How the results depend on the processing

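No result changed direction under the alternatives tried, and the causes of the changes below were not tested. At the high dose (6 genes called) the count was 3 with median centring (0 higher and 3 lower), 1 at a 2-fold threshold, 12 with no fold threshold, and 4 to 8 when each array was left out in turn. At the medium dose (4 called) it was 1 with median centring, 2 with the scanner's log ratio, 1 with no slide term, 1 at 2-fold and 8 with no fold threshold. It was 0 without slide 1, 1 without slide 3 (Ids, which was not among the 4), 2 without slide 4, and 2 to 5 when each array was left out, with 2 without control replicate 5 or medium dose replicate 5. At the low dose (1 called) it was 0 with normexp, with the scanner's log ratio, with outlier spots kept, with no slide term, with only the groups compared, at 2-fold, and without slide 2, 3 or 4. It was 3 with no fold threshold, 2 without slide 1 (Neu1 and Atp6ap1, not Tfeb), 2 without low dose replicate 1 and medium dose replicate 2 together, and 0 to 2 when each array was left out. With the series matrix values the low dose call was Ctsf in place of Tfeb, and Ids at the high dose (-0.50) and Arsa at the medium dose (adjusted p = 0.0631) were no longer called. Ctsf was also the only low dose call without slide 5, low dose replicate 1, low dose replicate 5, high dose replicate 4 or high dose replicate 5. The low dose median change was -0.21 with median centring, where the median of all detected probes was -0.08.

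When the replicate block took the place of the slide term, 5 genes were called at the high dose, Asah1 being lost, and 1, Ctsh, between the high and the low dose; among the further lysosomal genes it ended the calls of Dpp7 at the low dose (0.56, adjusted p = 0.004) and Gnptab at the high dose (-0.58, adjusted p = 0.000182), both then under 1.5-fold. The pairing ended no other call named here. The count of lysosome genes between the high and the low dose was also 1 without low dose replicate 1 and medium dose replicate 2 together, and 0 to 1 when each array was left out. Changes near 1.5-fold and spots left out on slide 2 (Tfeb, Ctsl) limit these calls, and signal near background limits Ctss and Ctsc.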
